A study of Mus musculus with 19 samples.

Results

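Integrin chains were measured with oligonucleotide arrays in OT-I cells after their transfer into B6 mice. OT-I cells are CD8 T cells with a transgenic antigen receptor that recognises a peptide of ovalbumin. The members were 8 genes, Itgb1, Itgb2, Itgb7, Itgal, Itga4, Itgae, Itgav and Itga6, out of 8251 genes with a probe set of their own on the array. Every probe set that a probe-to-gene table assigned to 1 of these symbols was taken, which gave 15 of 12422 probe sets. Of the 15, 11 had a mean signal over all arrays above the 30th percentile, a signal of 26.1, and were tested. The 4 under that level were 1 of the 2 Itgae sets, 2 of the 3 Itga4 sets and 1 of the 3 Itgav sets, and they are given as values only.

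The cells came from irradiated hosts at day 5 (n = 8), day 40 (n = 4) or day 115 (n = 3), or from unirradiated hosts (n = 4). The day is from the sample titles; the descriptions state that the day-5 samples and the unirradiated samples were both sorted at day 6. All groups shared the cell transfer, the B6 host and a source given as lymph node or spleen, and the sources used here do not give host age. The descriptions of day-5 arrays 1 and 2 name no cell type. No unirradiated group at day 40 or day 115 was analysed here, so at those days host irradiation and time after transfer cannot be told apart. The labels do not say that the samples came from separate animals, so p-values measure the spread between these samples only.

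An integrin is a pair of 1 alpha and 1 beta chain that holds a cell to its neighbours or to the matrix. The beta chains Itgb1, Itgb2 and Itgb7 each serve several alpha chains. Itgal pairs with Itgb2 to form LFA-1, which binds ICAM molecules on other cells. Itga4 pairs with Itgb1 to form VLA-4, a receptor for VCAM-1 and fibronectin, and with Itgb7 to form the gut-homing receptor for MAdCAM-1. Itgae pairs with Itgb7 to form the CD103 integrin, which binds E-cadherin on epithelium. Itgav and Itga6 pair, among others, with Itgb1 to bind RGD-containing matrix proteins and laminin. Signal is bulk and per array, so fewer cells that express a chain and less RNA per cell cannot be told apart.

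The chains moved in opposite directions. By the probe set 100124_r_at, Itgb1 rose in cells from irradiated hosts by 1.18 ± 0.20 at day 40 and 0.98 ± 0.21 at day 115 on a log2 scale. The set 100123_f_at missed the threshold at those days and was called once array clusters entered the fit. At day 115 that call assumes an equal cluster offset in all groups. Neither set was called at day 5. Itgae fell by 0.52 ± 0.11, 1.05 ± 0.13 and 1.15 ± 0.14 at day 5, day 40 and day 115 by its brighter probe set. The day-5 call of Itgae hung on single arrays and was lost with the 2 groups fitted alone. The other Itgae set, dim and untested, overlapped between all groups. Itga4 fell by 0.75 ± 0.13 and 0.84 ± 0.14 at day 40 and day 115. Itgav fell at all 3 days by its brightest probe set, 104386_f_at. Its day-40 call was lost once the array clusters entered the fit, and its day-5 and day-40 calls hung on single arrays. The dim, untested Itgav set 98366_at showed no fall. Itgb7, Itgal and Itgb2 were called higher at day 115, and these 3 calls were lost once the array clusters entered the fit.

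By their correlation over all tested probe sets, the 19 arrays fell into 2 clusters that did not follow the groups. All 3 day-115 arrays lay in cluster 1, together with arrays 1 and 2 of day 40 and arrays 1 to 3 of day 5. All 4 unirradiated arrays lay in cluster 2, together with arrays 3 and 4 of day 40 and arrays 4 to 8 of day 5. Pairs of arrays of the same group had a median r of 0.974 within a cluster and 0.884 across clusters. The sources used here do not say what the clusters stand for. Each difference was therefore also fitted with the cluster as a term, and computed within a cluster where a group had at least 2 arrays there. No cluster-1 array came from an unirradiated host, so day 115 could not be compared with unirradiated hosts within a cluster. With the cluster term, that comparison takes the cluster offset from the day-5 and day-40 arrays and assumes it equal in all groups. The clusters themselves were drawn from the values of these arrays.

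Cd8a had a mean signal of 2940.0 ± 818 at day 5, 2567 ± 515 at day 40, 2079 ± 188 at day 115 and 2533 ± 249.9 in unirradiated hosts (SD, n = 8, 4, 3 and 4). The 9 CD8 T cell markers on the array summed to 9282 to 15548 over the irradiated groups and to 9223 to 11012 in unirradiated hosts. At day 115 they summed to 11077 to 12806, above that range. The 12 B cell and plasma cell markers summed to 1422 to 2913 at day 5, 1755 to 3376 at day 40, 2788 to 4338 at day 115 and 1190.0 to 1409.8 in unirradiated hosts, so none of the irradiated groups overlapped the unirradiated one. Much of the sum was Ighm, which averaged 978, 1161 and 1944 at the 3 days and 499.6 in unirradiated hosts. H2-Aa was also higher, at 118, 243 and 431 against 90.0. Pax5 was nearly flat, at 101, 98.3 and 108 against 98.6, and Pou2af1 lower, at 36.5, 39.8 and 33.3 against 48.2 ± 30.4. These B lineage sums also split by array cluster, with 2315 to 2913 on the day-5 arrays of cluster 1 and 1422 to 1582 on those of cluster 2. At day 40 they were 2218 and 3376 in cluster 1 and 1848 and 1755 in cluster 2. The 5 erythroid markers summed to 299 to 2595, 438 to 1078 and 544 to 1312 at the 3 days and to 270 to 416 in unirradiated hosts. Most of the gap was Hba-a1, at 654, 580 and 745 against 137 in unirradiated hosts. Alas2 had 66.5, 79.2 and 74.3 against 56.5, and Epor 45.4, 44.4 and 46.4 against 42.4. Slc4a1 had 39.7, 41.4 and 34.2 against 36.1, and Car2 58.4, 69.7 and 47.9 against 63.0. The 3 NK cell markers summed to 57.4 to 111 at day 5, 61.7 to 85.4 at day 40, 76.2 to 104 at day 115 and 71.1 to 75.7 in unirradiated hosts. Platelet, myeloid, CD4 T cell and stromal markers had overlapping sums in all groups, and no marker stood at 0. The part of B lineage, erythroid or NK cell RNA in the integrin values was not tested.

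The promoters of Itgb1 and Itga4 are shown because these chains form 1 receptor and were called in opposite directions at day 40. Each is the 250 bases before the gene's start, from RefSeq on GRCm38.p6, 5′ to 3′ along the gene. Windows were at hand for 4 of the 8 members. The window of Itgb1 is chr8:128685404-128685653 and that of Itga4 chr2:79255176-79255425, both on the plus strand. Capitals mark the GC box GGGCGG and, in Itga4, ACCACA, the other strand of the RUNX core TGTGGT.
Itgb1: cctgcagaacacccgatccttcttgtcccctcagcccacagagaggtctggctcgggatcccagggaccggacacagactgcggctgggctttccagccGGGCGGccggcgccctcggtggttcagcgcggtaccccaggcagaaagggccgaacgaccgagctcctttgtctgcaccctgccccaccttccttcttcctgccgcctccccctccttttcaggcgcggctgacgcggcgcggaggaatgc
Itga4: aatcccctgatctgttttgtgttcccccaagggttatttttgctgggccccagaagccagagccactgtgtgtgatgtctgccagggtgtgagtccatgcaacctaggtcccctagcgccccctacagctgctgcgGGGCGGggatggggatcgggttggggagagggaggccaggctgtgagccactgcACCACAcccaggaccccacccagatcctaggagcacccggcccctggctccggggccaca
The GC box lay 151 to 146 bases before the start in Itgb1 and 114 to 109 bases before it in Itga4, and the RUNX core 60 to 55 bases before it in Itga4. Both strands were searched for these 2 motifs and for TATAAA and CCGGAA, and TATAAA and CCGGAA had no match in either window. Of 32851 promoter windows, 32.7% held the GC box, 14.0% the RUNX core, 12.4% TATAAA and 12.03% CCGGAA. The windows given for Itgb7 and Itgav lie within the annotated span of the gene and are not described.

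Differences below are on the scale of log2(signal + 16), as irradiated minus unirradiated or later minus earlier day, with their standard error. They were tested with limma over all 8695 probe sets above the signal level, and an adjusted p (Benjamini-Hochberg) under 0.05 was the threshold for a change. Because 16 is added, the differences of dim probe sets are understated.

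Against unirradiated hosts, 0 of the 11 tested integrin probe sets rose and 2 fell at day 5, where 0.414% of all tested probe sets were called higher and 0.38% lower. At day 40, 1 rose and 3 fell, against 1.15% higher and 0.334% lower in all. At day 115, 4 rose and 5 fell, against 15.1% higher and 12.8% lower in all. After the cluster term was added, 0 rose and 3 fell at day 5, against 0.978% higher and 0.61% lower in all. The counts were then 2 and 2 at day 40, against 1.79% and 0.426%, and 2 and 3 at day 115, against 3.15% and 1.27%. At an unadjusted p under 0.05, limma's group-only fit had 4, 8 and 11 of the 11 at the 3 days, against 13.5%, 15.3% and 40.7% of all tested probe sets. With the cluster term limma had 3, 5 and 7, against 11.5%, 13.4% and 22.4%. The 11 sets read 8 genes, so some genes enter these counts more than once. In the group-only fit the median difference of the 11 was -0.24, 0.09 and 0.36 at the 3 days, and that of all tested probe sets was 0.03, 0.03 and 0.01. The 3 comparisons share the unirradiated arrays.

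**Figure D1:**
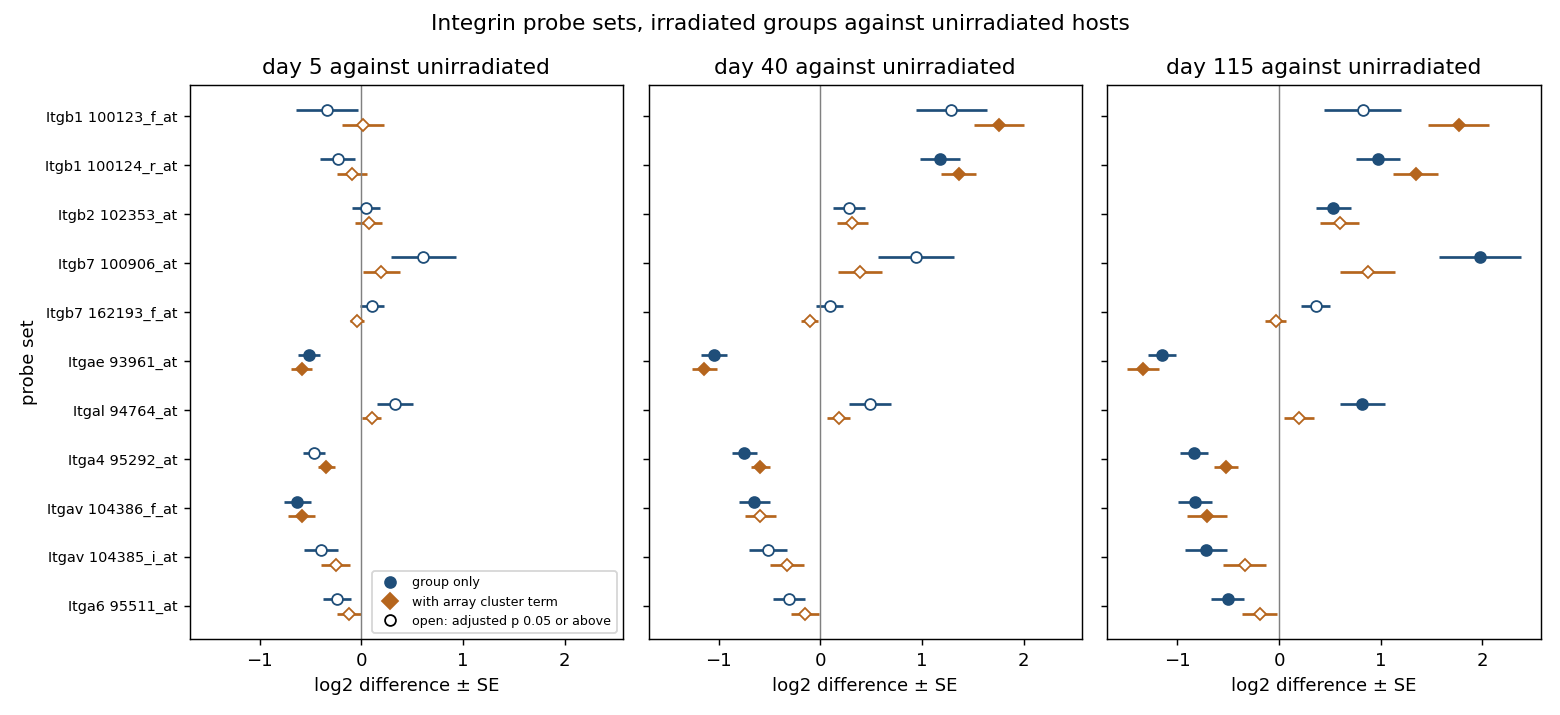
Differences from unirradiated hosts in log2(signal + 16) for the 11 tested integrin probe sets at day 5, day 40 and day 115, as circles for the fit on group only and diamonds for the fit with the array cluster term, with bars of 1 standard error; filled symbols have an adjusted p under 0.05. Both Itgb1 sets lie to the positive side at day 40 and day 115, and Itgae, Itga4 and Itgav lie to the negative side at all 3 days.

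Itgb1, the beta chain shared by the very late antigen receptors, was read by 2 probe sets built on the same messenger sequence. The set 100123_f_at had a lowest, median and highest signal of 388, 794 and 1197 at day 5. Its signals were 1588, 2031, 2463 and 3043 at day 40 and 2124, 1067 and 1813 at day 115, and the unirradiated arrays had 659, 1092, 813 and 1114. All 4 day-40 arrays lay above every day-5 and every unirradiated array, while day-115 array 2 lay among the unirradiated ones and day 5 overlapped them.

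The difference of this set from unirradiated hosts was -0.34 ± 0.30 at day 5 (adjusted p = 0.605), 1.29 ± 0.35 at day 40 (adjusted p = 0.0752) and 0.82 ± 0.38 at day 115 (adjusted p = 0.111), so limma called none. Fitted with the cluster term, it was 0.01 ± 0.21 at day 5, 1.76 ± 0.24 at day 40 (adjusted p = 0.0003) and 1.77 ± 0.30 at day 115 (adjusted p = 0.0029), and the last 2 were called. The day-115 value rests on the cluster offset of the day-5 and day-40 arrays. Day-5 arrays of cluster 1 averaged 429.9 ± 45.0 (n = 3) and those of cluster 2 averaged 968 ± 199 (n = 5). Within cluster 2 alone, day 40 exceeded unirradiated hosts by 1.59 ± 0.24 in limma (adjusted p = 0.0043, n = 2 and 4).

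At day 5 the lowest, median and highest signals of the set 100124_r_at were 155, 189 and 258. The set had 412, 577, 580.0 and 663 at day 40, 458, 639 and 368 at day 115, and 192, 246, 230.0 and 279 on the unirradiated arrays. Every day-40 and day-115 array lay above every day-5 and unirradiated array. The difference from unirradiated hosts was -0.23 ± 0.17 at day 5 (adjusted p = 0.536), 1.18 ± 0.20 at day 40 (adjusted p = 0.0032) and 0.98 ± 0.21 at day 115 (adjusted p = 0.0047) in limma. On the scale of signal + 16, Itgb1 thus rose 2.26-fold at day 40 and 1.97-fold at day 115 by this set, and both calls held whichever single array was left out and with the cluster term, where the differences were 1.36 and 1.34.

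**Figure D2:**
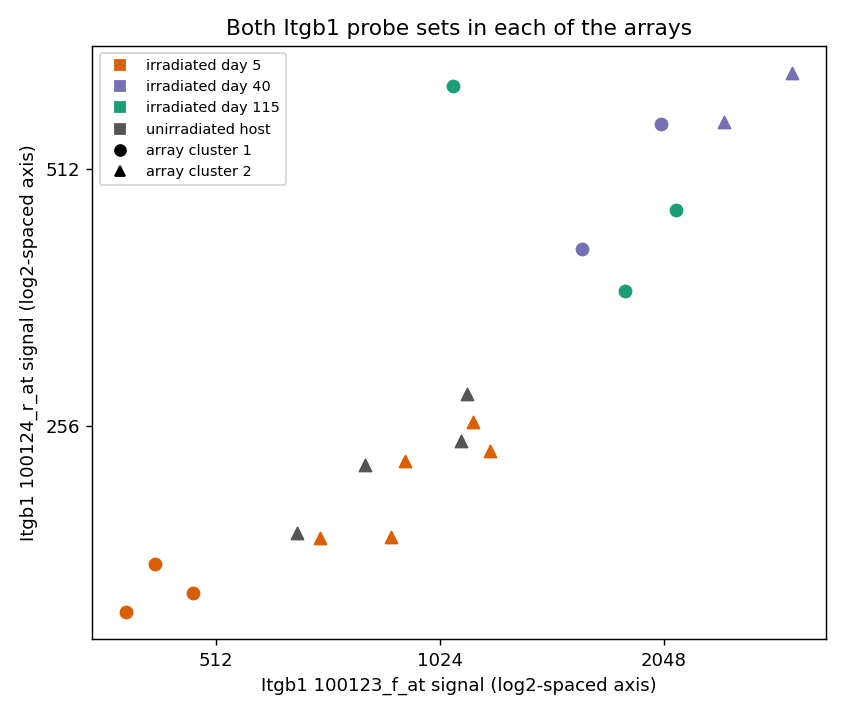
Signal of the Itgb1 set 100124_r_at against that of 100123_f_at in each of the 19 arrays, both on log axes, coloured by group, with circles for array cluster 1 and triangles for array cluster 2. All day-40 and day-115 arrays lie at 368 or more in 100124_r_at and all others at 279 or less, while 1 day-115 array, at 1067, is among the unirradiated ones in 100123_f_at.

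Between irradiated groups, Itgb1 rose at day 40 over day 5 by 1.63 ± 0.30 in 100123_f_at (adjusted p = 0.0102) and by 1.41 ± 0.17 in 100124_r_at (adjusted p = 0.0003) in limma. It rose at day 115 over day 5 by 1.16 ± 0.34 (adjusted p = 0.0285) and 1.21 ± 0.19 (adjusted p = 0.0008). For 100123_f_at the day-40 call was lost without day-40 array 4 (1.48, adjusted p = 0.0647), and the day-115 call without day-115 array 1 (0.96, adjusted p = 0.124) or array 3 (1.07, adjusted p = 0.0981) or with the 2 groups fitted alone (adjusted p = 0.0738). Both day-40 calls were lost within cluster 1, where the excess over day 5 was 2.03 ± 0.29 (adjusted p = 0.0724) and 1.48 ± 0.25 (adjusted p = 0.133) and 1 of all tested probe sets was called. Within cluster 1, the day-115 excess over day 5 was 1.86 ± 0.26 in 100123_f_at (adjusted p = 0.018) and 1.45 ± 0.22 in 100124_r_at (adjusted p = 0.0205). Day 115 and day 40 differed by -0.47 ± 0.38 (adjusted p = 0.558) and -0.20 ± 0.21 (adjusted p = 0.657), which missed the threshold.

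The 2 Itgb1 sets were set against each other as the log2 signal of 100123_f_at minus that of 100124_r_at in the same array. This quantity averaged 1.76 ± 0.41 at day 5, 1.98 ± 0.17 at day 40, 1.72 ± 0.86 at day 115 and 1.87 ± 0.18 in unirradiated hosts (SD, n = 8, 4, 3 and 4). Its change from unirradiated hosts was -0.11 at day 5 (p = 0.630), 0.11 at day 40 (p = 0.371) and -0.15 at day 115 (p = 0.857) in exact two-sided permutation tests, and each of the 3 adjusted values was 0.857. With the cluster as a term these changes were 0.11, 0.40 and 0.42, and within cluster 2 they were 0.17 at day 5 and 0.25 at day 40. The smallest p these exact tests allow is 0.0040, 0.029 and 0.057. Without day-115 array 2, whose own value was 0.724, the day-115 change turned to 0.34.

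That array was the lowest of its group in 100123_f_at and the highest in 100124_r_at. Across arrays the sets correlated with r = 0.869 in the 8 arrays of cluster 1 and 0.972 in the 11 arrays of cluster 2. Cluster 1 was lower than cluster 2 by 0.94 in 100123_f_at and by 0.37 in 100124_r_at, with the cluster as a term beside the group. A suffix of _f marks probes that may match a family of transcripts, and _r marks a set built under relaxed design rules.

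Itgb2, the beta chain of LFA-1 and of other leukocyte integrins, was read by 102353_at. Day 5 ran from 455 through a median of 547 to 608. The signals were 572, 595, 654 and 734 at day 40, 683, 849 and 752 at day 115, and 457, 612, 422 and 614 on the unirradiated arrays. All day-115 arrays lay above every day-5 and unirradiated array, and day 40 overlapped both.

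Itgb2 rose at day 115 by 0.53 ± 0.17 over unirradiated hosts in limma (adjusted p = 0.0272) and by 0.49 ± 0.15 over day 5 (adjusted p = 0.0394). The first call was lost with the cluster term (0.59, adjusted p = 0.0831) and without any 1 of day-115 arrays 2 and 3 and unirradiated arrays 1 and 3 (0.44 to 0.54, adjusted p up to 0.0928). The second held with the cluster term (0.52, adjusted p = 0.0321) and was lost without day-5 array 5, 6 or 7 or any 1 of the day-115 arrays (0.41 to 0.56, adjusted p up to 0.159). It was also lost within cluster 1 (0.46 ± 0.17, adjusted p = 0.173) and with the 2 groups fitted alone (adjusted p = 0.0801). The difference from unirradiated hosts was 0.05 ± 0.14 at day 5 and 0.28 ± 0.16 at day 40, neither called.

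Itgb7, the beta chain of both gut-associated receptors, ran from 360.3 through a median of 597 to 1278 at day 5 in its brighter probe set, 100906_at. Its signals were 1389.8, 1032, 571 and 667 at day 40, 1479.7, 2642 and 1441 at day 115, and 399, 497, 393 and 481 on the unirradiated arrays. Every day-40 and day-115 array lay above every unirradiated array, and every day-115 array above every day-5 and day-40 array. Within day 5 and day 40 the values split by cluster. Day-5 arrays averaged 1156 ± 116 in cluster 1 and 504 ± 109 in cluster 2, and the 2 day-40 arrays of cluster 1 were the higher ones. The B lineage marker sums above split the same way, and their part in the Itgb7 and Itgal values was not tested.

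Itgb7 rose at day 115 by 1.98 ± 0.40 over unirradiated hosts (adjusted p = 0.0029) and by 1.37 ± 0.36 over day 5 (adjusted p = 0.0169) in limma. In the fit with the cluster term these were 0.87 ± 0.27 (adjusted p = 0.0684, the call lost) and 0.68 ± 0.21 (adjusted p = 0.0419). The second call was lost without day-115 array 2 (1.08, adjusted p = 0.110) and within cluster 1 alone (0.62 ± 0.25, adjusted p = 0.204). Differences from unirradiated hosts of 0.61 ± 0.32 at day 5 (adjusted p = 0.403) and 0.94 ± 0.37 at day 40 (adjusted p = 0.231) missed the threshold. Cluster 1 exceeded cluster 2 by 1.11 in this set, and 6.01% of all tested probe sets had a larger cluster difference.

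The other Itgb7 set, 162193_f_at, averaged 48.7 ± 10.1 at day 5, 48.2 ± 10.6 at day 40, 60.7 ± 6.62 at day 115 and 43.6 ± 4.06 in unirradiated hosts. Its day-115 difference was 0.36 ± 0.14 (adjusted p = 0.0662 in limma) and -0.03 with the cluster term. It tracked 100906_at with r = 0.513 in the arrays of cluster 1 and 0.071 in those of cluster 2.

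**Figure D3:**
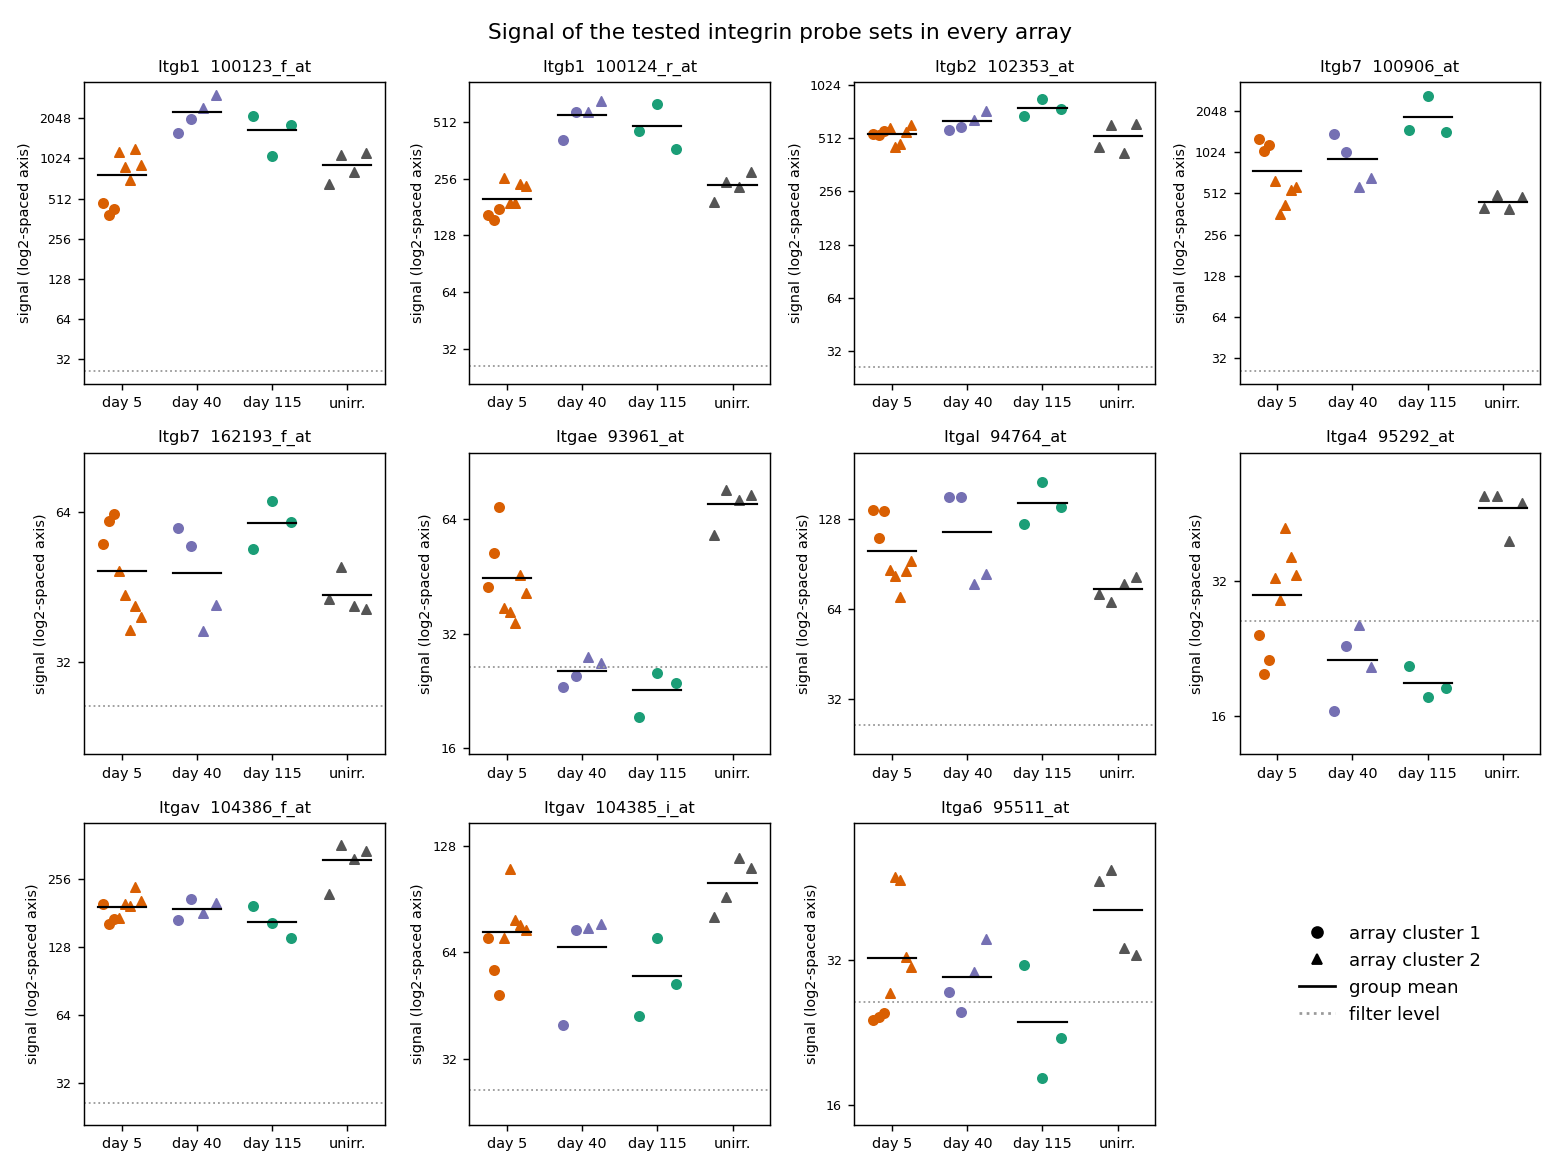
Signal per array on a log axis for the 11 tested integrin probe sets at day 5, day 40 and day 115 and in unirradiated hosts, with circles for array cluster 1, triangles for array cluster 2, a bar at each group mean and a dotted line at the filter level of 26.1. Itgae and Itga4 at day 40 and day 115 lie below all unirradiated arrays, and Itgb7 and Itgal split by cluster within day 5 and day 40.

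Itgal, the alpha chain of LFA-1, ran from 70.2 through a median of 89.3 to 137 at day 5 in 94764_at. Its signals were 151, 151, 77.5 and 83.9 at day 40, 123, 169.9 and 140.0 at day 115, and 71.8, 67.5, 77.2 and 81.8 on the unirradiated arrays. Day 115 lay above all unirradiated arrays, and the high day-5 and day-40 arrays were those of cluster 1. Itgal rose at day 115 by 0.82 ± 0.22 in limma (adjusted p = 0.0127). The call was lost without day-115 array 2 (0.71, adjusted p = 0.0572) and with the cluster term (0.20 ± 0.14, adjusted p = 0.436). Within cluster 2, the differences from unirradiated hosts were 0.13 ± 0.08 at day 5 and 0.10 ± 0.10 at day 40, neither called.

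Itga4, the alpha chain of VLA-4, had a lowest, median and highest signal of 19.9, 30.8 and 42.2 at day 5 in 95292_at. It stood at 16.4, 22.9, 25.5 and 20.6 at day 40, at 20.7, 17.6 and 18.4 at day 115, and at 49.5, 49.6, 39.3 and 48.0 on the unirradiated arrays. All day-40 and day-115 arrays lay below every unirradiated array, and 1 of the 8 day-5 arrays reached above the lowest unirradiated one. The day-40 and day-115 means, 21.3 ± 3.87 and 18.9 ± 1.59, were under the signal level of 26.1 used as the filter.

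Itga4 fell by 0.75 ± 0.13 at day 40 (adjusted p = 0.0030) and by 0.84 ± 0.14 at day 115 (adjusted p = 0.0008) in limma, and no single left-out array ended either call. With the cluster term the differences were -0.59 ± 0.10 (adjusted p = 0.0015) and -0.52 ± 0.12 (adjusted p = 0.0212). Within cluster 2, day 40 was lower by 0.68 ± 0.10 (adjusted p = 0.0042). At day 5 the difference of -0.46 ± 0.11 just missed the threshold (adjusted p = 0.0503) and passed it with the cluster term (-0.34 ± 0.08, adjusted p = 0.0373). It also passed without day-5 array 6 (adjusted p = 0.0171) or array 7 (adjusted p = 0.0379).

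The size of the Itga4 change depended on the added constant. With 1 in place of 16, the differences were -1.10 at day 40 and -1.25 at day 115, and with 64 they were -0.37 and -0.41. Day 115 was lower than day 5 by 0.37 ± 0.12 in limma (adjusted p = 0.0444), which was not called with the cluster term (-0.18, adjusted p = 0.224). That call was also lost without any 1 of the day-115 arrays or of day-5 arrays 4 to 8 (-0.41 to -0.32, adjusted p up to 0.146), within cluster 1 (-0.11 ± 0.09, adjusted p = 0.493) and with the 2 groups fitted alone (adjusted p = 0.0959). With 64 added, or without the intensity trend, the adjusted p was 0.0532 and 0.0588.

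Both Itga4 sets under the signal level were also highest in unirradiated hosts. The set 102656_at averaged 16.3 ± 2.03 at day 5, 13.5 ± 0.960 at day 40, 12.9 ± 1.35 at day 115 and 22.2 ± 2.23 in unirradiated hosts. The set 102655_at averaged 17.2 ± 1.41, 16.4 ± 1.62 and 17.4 ± 1.44 at the 3 days and 22.0 ± 2.43 in unirradiated hosts. Neither was tested.

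Itgae, the alpha chain of CD103, had a lowest, median and highest signal of 34.2, 41.6 and 69.1 at day 5 in 93961_at. Its signals were 23.2, 24.7, 27.7 and 26.7 at day 40, 19.3, 25.2 and 23.8 at day 115, and 58.3, 76.5, 72.0 and 74.0 on the unirradiated arrays. Every day-40 and day-115 array lay below every day-5 array, and only day-5 array 3 lay above the lowest unirradiated one. Day 40 and day 115 overlapped.

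Itgae fell by 0.52 ± 0.11 at day 5 (adjusted p = 0.0346), by 1.05 ± 0.13 at day 40 (adjusted p = 0.0001) and by 1.15 ± 0.14 at day 115 (adjusted p = 4.4e-05) in limma. The day-5 call was lost without any 1 of day-5 arrays 1, 5 and 6 or unirradiated arrays 2, 3 and 4 (-0.51 to -0.48, adjusted p up to 0.162) and with the 2 groups fitted alone (adjusted p = 0.0935). With the cluster term all 3 differences were called, at -0.59, -1.14 and -1.34. Within cluster 2 they were -0.65 ± 0.08 at day 5 (adjusted p = 0.0017) and -0.99 ± 0.10 at day 40 (adjusted p = 0.0003) in limma. The means at day 40 and day 115 were at or under the signal level of 26.1, and with 1 added in place of 16 the differences were -1.42 and -1.58.

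Against day 5, Itgae fell by 0.53 ± 0.11 at day 40 (adjusted p = 0.0194) and by 0.63 ± 0.12 at day 115 (adjusted p = 0.0031) in limma. The day-40 call was lost without day-40 array 1, 2 or 4 (-0.54 to -0.50, adjusted p up to 0.0686) and with the 2 groups fitted alone (adjusted p = 0.0678). It was also lost within cluster 1 (-0.80 ± 0.15, adjusted p = 0.133) and within cluster 2 (-0.34 ± 0.09, adjusted p = 0.0544). Within cluster 1, the day-115 difference was -0.85 ± 0.13 (adjusted p = 0.0202). The untested set 161730_f_at averaged 19.8 ± 7.02, 15.3 ± 2.21 and 17.8 ± 3.54 at the 3 days and 18.7 ± 2.13 in unirradiated hosts, and its groups overlapped.

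Itgav, an alpha chain of receptors for RGD-containing proteins, had its brightest signal in 104386_f_at, whose suffix marks probes that may match a family of transcripts. At day 5 the lowest, median and highest signals of this set were 162, 197 and 235. It had 168, 208, 181 and 199.98 at day 40, 195, 163 and 139.8 at day 115, and 221, 362, 316 and 341 on the unirradiated arrays. All day-40 and day-115 arrays lay below every unirradiated array, and the 3 irradiated groups overlapped each other. Itgav fell by 0.63 ± 0.13 at day 5 (adjusted p = 0.0347), by 0.65 ± 0.15 at day 40 (adjusted p = 0.0395) and by 0.83 ± 0.17 at day 115 (adjusted p = 0.0028) in limma.

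The Itgav difference at day 115 was called with the cluster term (-0.71 ± 0.20, adjusted p = 0.0442) and without any single array. The day-5 call held with the cluster term (-0.59, adjusted p = 0.0269) and was lost without any 1 of day-5 arrays 1, 2, 3 and 6 or unirradiated arrays 2, 3 and 4 (-0.64 to -0.55, adjusted p up to 0.184). It was also lost within cluster 2 (-0.57 ± 0.14, adjusted p = 0.0546), with the 2 groups fitted alone (adjusted p = 0.0748) and without day-5 arrays 1 and 2 together (-0.60, adjusted p = 0.0861). The day-40 call was lost with the cluster term (-0.59, adjusted p = 0.0529) and without any 1 of the 4 day-40 arrays or unirradiated arrays 2, 3 and 4 (-0.69 to -0.57, adjusted p up to 0.140). It was lost as well within cluster 2 (-0.64 ± 0.18, adjusted p = 0.0801), with the 2 groups fitted alone (adjusted p = 0.0770) and with no filter (adjusted p = 0.0530).

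The set 104385_i_at fell by 0.72 ± 0.21 at day 115 in limma (adjusted p = 0.0167), with means of 55.0 ± 14.2 at day 115 and 100.4 ± 17.3 in unirradiated hosts. That call was lost with the cluster term (-0.34, adjusted p = 0.358) and without day-115 array 1 (-0.59, adjusted p = 0.0749) or array 3 (-0.70, adjusted p = 0.0502). At day 5 and day 40 its differences of -0.40 ± 0.16 and -0.51 ± 0.19 missed the threshold. The third Itgav set, 98366_at, lay between 13.8 and 22.2 on all arrays and was not tested. It averaged 15.3 ± 0.789, 16.5 ± 1.65 and 18.0 ± 3.69 at the 3 days and 15.8 ± 1.79 in unirradiated hosts, so it showed no fall.

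Itga6, an alpha chain of laminin receptors, averaged 32.2 ± 9.66 at day 5, 29.5 ± 4.42 at day 40, 23.8 ± 6.71 at day 115 and 40.5 ± 8.46 in unirradiated hosts. Its day-115 signals of 31.3, 18.2 and 22.0 lay below the unirradiated values of 46.5, 49.0, 33.8 and 32.8. It fell at day 115 by 0.51 ± 0.17 in limma (adjusted p = 0.0308). The call was lost with the cluster term (-0.19, adjusted p = 0.530) and without any 1 of day-115 arrays 2 and 3 and unirradiated arrays 1 and 2 (-0.48 to -0.40, adjusted p up to 0.125). At day 5 and day 40 the differences were -0.24 ± 0.13 and -0.31 ± 0.15, neither called.

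Set between irradiated days, 2 of the 11 probe sets rose and 1 fell at day 40 over day 5, where 0.955% of all tested probe sets were called higher and 0.311% lower. These were the 2 Itgb1 sets and Itgae. At day 115 over day 5, 4 rose and 2 fell, against 8.22% higher and 5.6% lower in all. The 4 were both Itgb1 sets, Itgb2 and Itgb7, and the 2 were Itgae and Itga4. The cluster term left 2 rises and 1 fall at day 40 over day 5, with 7.43% of all probe sets called, and 4 rises and 1 fall at day 115 over day 5, with 14.2% called. Between day 115 and day 40, limma called 0 of the 11, against 0.092% called in all. At an unadjusted p under 0.05 there was 1 of the 11, against 13.5% of all tested probe sets. That 1 was Itgb7, whose signal at day 115 exceeded that at day 40 by 1.03 ± 0.40 (adjusted p = 0.308).

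By whole arrays, 3 of the 11 probe sets had every day-40 array above every unirradiated one, against 8.59% of all tested probe sets, and 4 had every such array below, against 5.22%. At day 115 the counts were 5 above, against 21.7%, and 5 below, against 21%. At day 5 both counts were 0, against 1.76% above and 1.69% below. Set against day 5, 2 had every day-40 array above and 1 below, against 124 and 70 of all 8695 tested probe sets. For day 115 against day 5 the counts were 3 and 1, against 503 and 444. For day 115 against day 40 they were 1 and 0, against 352 and 376.

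The alpha chains were then set against their beta partners, as log2 alpha minus log2 beta signal in the same array, so only changes of this quantity are compared. The order of sizes differed between pairs. For LFA-1, Itgal minus Itgb2 changed by 0.28 at day 5, 0.21 at day 40 and 0.28 at day 115. For VLA-4, Itga4 minus Itgb1 changed by -0.12 at day 5, -2.04 at day 40 and -1.66 at day 115. At day 40 it ranged from -6.39 to -5.63, against -4.14 to -3.36 in unirradiated hosts, so the groups did not overlap.

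For the Itgb7 receptors, Itgae minus Itgb7 changed by -1.13 at day 5, -1.99 at day 40 and -3.13 at day 115, and Itga4 minus Itgb7 by -1.07, -1.69 and -2.82. Itgav minus Itgb1 changed by -0.29, -1.94 and -1.65, and Itga6 minus Itgb1 by 0.10, -1.59 and -1.33. At day 40 the single differences were 1.29 for Itgb1 by 100123_f_at and -0.31 for Itga6, neither called by limma in the group-only fit. These are 18 exact two-sided permutation tests. The change of a pair is the difference between the changes of its 2 chains. Itgb1, Itgb7 and Itga4 each enter more than 1 pair, so the pairs are not separate results. How often other pairs of probe sets part in this way was not computed. At day 40, each of the 5 pairs other than Itgal with Itgb2 gave p = 0.0286, the smallest this exact test allows, and at day 5 Itgae minus Itgb7 gave p = 0.0040 and Itga4 minus Itgb7 gave p = 0.0121. After adjustment over the 18 exact tests 0 passed, with a lowest adjusted p of 0.0727, and at day 115 the smallest possible p of 0.057 cannot pass.

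With the cluster as a term, the day-40 and day-115 changes were -2.35 and -2.29 for Itga4 minus Itgb1 and -2.35 and -2.48 for Itgav minus Itgb1. For Itgae minus Itgb7 they were -1.53 and -2.21, and for Itga4 minus Itgb7 -0.98 and -1.39. For Itga6 minus Itgb1 they were -1.91 and -1.96, and Itgal minus Itgb2 turned to -0.13 and -0.40. The day-5 changes were then -0.36 for Itga4 minus Itgb1, -0.60 for Itgav minus Itgb1, -0.54 for Itga4 minus Itgb7, -0.78 for Itgae minus Itgb7 and 0.03 for Itgal minus Itgb2, and Itga6 minus Itgb1 turned to -0.14.

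**Figure D4:**
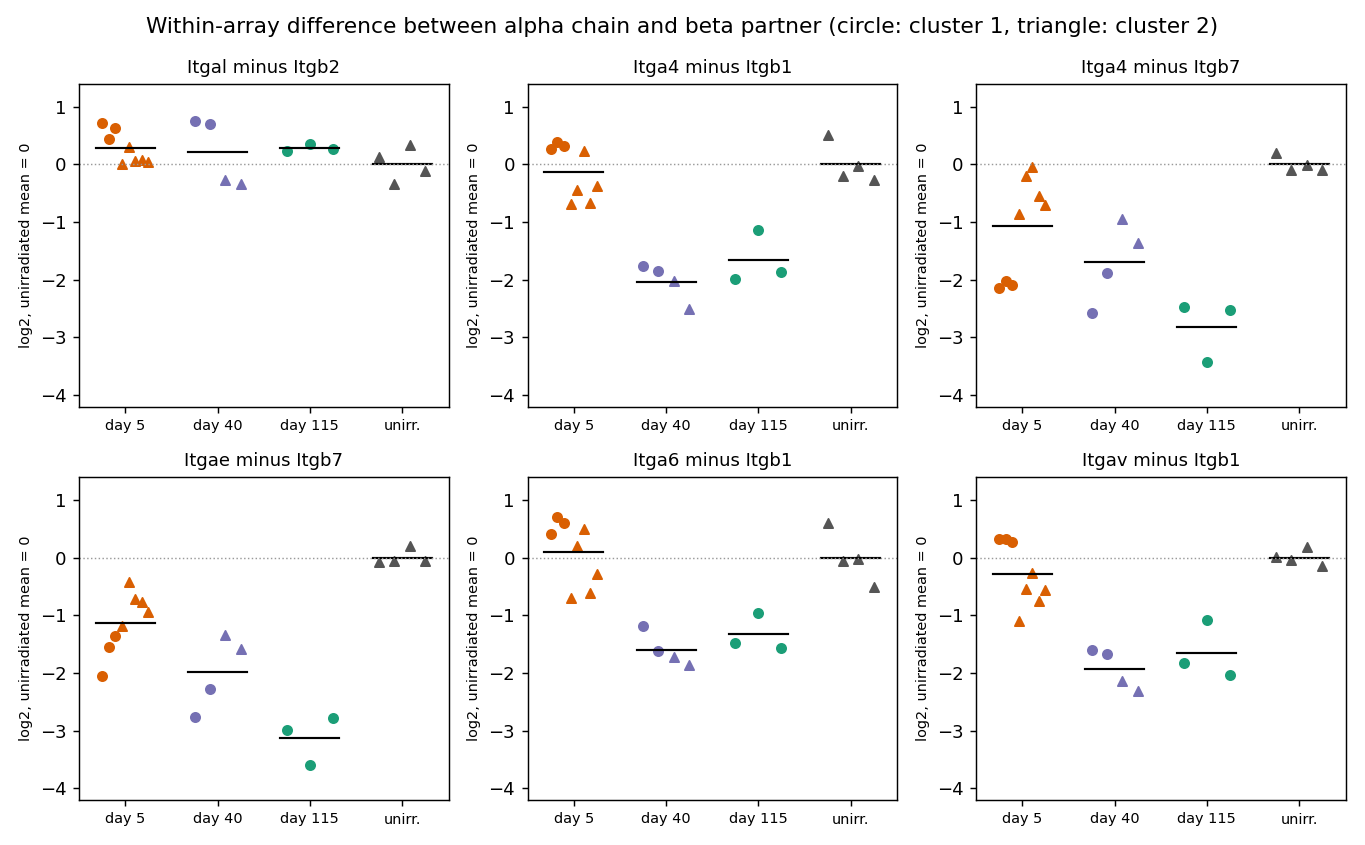
Log2(signal + 16) of each alpha chain minus that of its beta partner in every array, for 6 pairs, set to 0 at the unirradiated mean, with a bar at each group mean, circles for array cluster 1 and triangles for array cluster 2. The day-40 arrays lie below all unirradiated arrays in 5 of the 6 pairs, which share chains, and Itgal minus Itgb2 overlaps.

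Genes around the integrins were read from 5 lists, each gene by its brightest probe set. Of 33 tested genes of integrin activation and adhesion signalling, 0 rose and 1 fell at day 5, 0 rose and 1 fell at day 40, and 6 rose and 10 fell at day 115. Of all tested probe sets, 0.414% were called higher and 0.38% lower at day 5, 1.15% and 0.334% at day 40, and 15.1% and 12.8% at day 115. The median differences of the 33 were 0.07, 0.00 and -0.07, against 0.03, 0.03 and 0.01 over all tested probe sets. The gene that fell at day 5 and day 40 was Cd9, a tetraspanin that associates with integrins in the membrane. Its signal averaged 53.8 ± 10.8 at day 5, 42.2 ± 5.61 at day 40 and 111 ± 9.01 in unirradiated hosts, and the differences were -0.88 ± 0.12 (adjusted p = 0.0013) and -1.13 ± 0.14 (adjusted p = 0.0001) in limma.

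At day 115 the largest changes of that list were falls of Actn1, an actin crosslinker at adhesion sites, of Apbb1ip, the RIAM adaptor between Rap1 and talin, of Lims1, a partner of integrin-linked kinase, and of Cd47, an integrin-associated membrane protein. Their differences were -2.62 ± 0.52, -2.34 ± 0.69, -1.77 ± 0.44 and -1.59 ± 0.47. With the cluster term, Actn1 was called at -1.03 (adjusted p = 0.0313), and Apbb1ip (-0.22), Lims1 (-0.40) and Cd47 (-0.16) were not. The list then had 2 rises and 2 falls at day 115, and at day 40 1 rise, of the tetraspanin Cd82 (0.86, adjusted p = 0.0104), beside the fall of Cd9. Of all tested probe sets, 3.15% were then called higher and 1.27% lower at day 115, and 1.79% and 0.426% at day 40.

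Of 13 tested integrin ligands and counter-receptors, limma called 0 at day 5 and day 40, where 1 and 0 had an unadjusted p under 0.05. With the cluster term, Vcam1, the ligand of VLA-4, was called higher at day 5 by 1.27 (adjusted p = 0.0041), against 0.88 ± 0.33 without it (adjusted p = 0.245). Its signal averaged 109 ± 71.6 at day 5 and 43.2 ± 9.10 in unirradiated hosts. At day 115, 1 rose, Lama2, a laminin chain, by 0.20 ± 0.07 (adjusted p = 0.0497, and 0.06 with the cluster term). The median differences of the 13 were 0.08, 0.01 and 0.10 at the 3 days, and 0.01, -0.06 and -0.08 with the cluster term. Of 7 other tested integrin chains, limma called 0 at day 5 and day 40, where 0 and 1 had an unadjusted p under 0.05, and 1 rose at day 115. For both lists, the share of all tested probe sets called higher at day 115 was 15.1%. The 1 riser of the 7 is described next. It was Itgax, the CD11c alpha chain, with 80.7 ± 5.84 at day 115 and 47.7 ± 0.802 in unirradiated hosts, a difference of 0.60 ± 0.15 in limma (adjusted p = 0.0095), which was 0.24 with the cluster term (adjusted p = 0.295).

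TGF-beta is known to induce Itgae in CD8 T cells, so its pathway was read beside it. Of 11 tested genes, limma called 0 at day 5 and day 40, where 2 and 1 had an unadjusted p under 0.05, and 1 rose and 4 fell at day 115. At day 115, 15.1% of all tested probe sets were called higher and 12.8% lower. The median differences of the 11 were -0.29, -0.08 and -0.21, against 0.03, 0.03 and 0.01 over all tested probe sets. Tgfb1, the ligand, rose by 0.72 ± 0.17. The largest falls were in Smad1 (-2.79 ± 0.80) and Smad4 (-1.79 ± 0.43), transducers of TGF-beta family signals. Furin (-0.96 ± 0.22), a protease that processes the ligand, came next. In the fit with the cluster term these 4 differences were 0.40, -0.23, -0.51 and -0.64, with adjusted p of 0.122 to 0.662, so none passed.

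Of 10 tested homing and adhesion partners, 1 rose at day 5, 2 rose at day 40, and 4 rose and 1 fell at day 115. Of all tested probe sets, 0.414%, 1.15% and 15.1% were called higher at the 3 days, and 12.8% lower at day 115. The cluster term left 1, 2 and 2 rises, against 0.978%, 1.79% and 3.15% in all. The median differences of the 10 were 0.19, 0.37 and 0.60, against 0.03, 0.03 and 0.01 over all tested probe sets. With the cluster term they were -0.03, 0.09 and 0.03, against -0.003, -0.02 and -0.05. The 2 that were called at day 115 in both fits were Cxcr3 and Ccr2, chemokine receptors of effector and memory T cells. Cd2, an adhesion receptor, had a difference of 1.33 ± 0.26 (0.70 with the cluster term, adjusted p = 0.0619), and Cd96, a receptor for nectin family ligands, one of 0.88 ± 0.29 (0.04 with the cluster term).

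For each chain's brightest probe set, the genes most alike across the 19 arrays were found by Pearson correlation of log2 signal, as a description of arrays that share groups and clusters. For Itgb1 the nearest was Antxr2, with r = 0.963 over all arrays, 0.967 in the 8 arrays of cluster 1 and 0.978 in the 11 arrays of cluster 2, followed by Ahnak and Susd6. For Itgae they were Ago2, Ntrk3 and Tapbp, with r = 0.832 for Ago2 (0.720 and 0.875 within clusters). For Itga4 they were Egr1, Tank and Actn1, with r = 0.936 for Egr1 (0.740 and 0.846). For Itgav they were Cd9, Rflnb and Mfhas1, with r = 0.872 for Cd9 (0.640 and 0.842). Within clusters 1 and 2, Rflnb had 0.375 and 0.864 and Mfhas1 0.059 and 0.880, so likeness over all arrays need not hold within a cluster.

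Ddx41, Ppil2 and Ints9 were nearest to Itgb7, with r = 0.978 for Ddx41 (0.927 and 0.771). Tomm34, Miip and Adar were nearest to Itgal, with r = 0.959 for Tomm34 (0.631 and 0.603), and within clusters Miip had 0.714 and 0.461 and Adar 0.808 and 0.286. The nearest genes to Itgb2 were Wbp1l, Xab2 and Arhgap45, with r = 0.832 for Wbp1l (0.857 and 0.788). Those to Itga6 were Gnpnat1, Spred2 and Ociad1, with r = 0.909 for Gnpnat1 (0.653 and 0.888). Within clusters Spred2 had 0.273 and 0.882 and Ociad1 0.500 and 0.859.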

How the data were processed

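Messenger RNA was read from 19 arrays of 4 groups. The authors deposited 1 linear intensity per probe set and array, from 7.68 to 13242, and the sources used here do not give how they made these values. Array medians lay between 49.6 and 53.7 and spanned 0.088 on the scale of log2(signal + 16), under a limit of 0.1, so no further normalisation was applied.

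The 66 control probe sets were left out of 12488. Of the others, 10833 had 1 gene symbol in the probe table, 396 several and 1193 none there. The 8695 with a mean above the 30th percentile were fitted with limma 3.58.1 in R 4.3.3 (all 19 arrays, group as factor, intensity trend), and p-values were adjusted over all of them by Benjamini-Hochberg. The 2 Itgb1 sets and the alpha and beta partners were compared by exact permutation tests in scipy 1.17.1. The fit was tested on simulated data. Alternatives were other pseudocounts, filters and normalisation, a cluster term, single clusters, a replicate block, fits of the 2 groups alone and leaving out arrays.

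Members, gene lists and settings were chosen with earlier results of these data known. All probe sets of the 8 members were described. From each list, up to 4 called genes with the largest change per comparison with unirradiated hosts were named, and for each member the 3 most correlated genes. The number of arrays limits the precision.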

Additional observations from a re-analysis of the deposited data

Results flagged for a closer look

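Of 45 groups of 4 to 8 arrays, 2 had 1 array far from the others, and chance alone marks about 1 group in 20. Itga4 by 95292_at stood at 39.26 on unirradiated array 3, against 47.97 to 49.56 on the other unirradiated arrays. Itgav by 104385_i_at stood at 40.08 on day-40 array 1, against 73.98 to 76.86 on the others of its group.

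The other marked values are those where the difference from unirradiated hosts itself differed between days by limma's test. The unirradiated mean cancels there, so they are the differences from day 5 already given, with the same limits, and no further result. The excess of day 40 over day 5 was 1.63 for Itgb1 by 100123_f_at and 1.41 by 100124_r_at, and that of day 115 over day 5 was 1.16 and 1.21. For Itgae, day 40 was apart from day 5 by -0.53 and day 115 by -0.63. Day 115 was apart from day 5 by 0.49 for Itgb2, 1.37 for Itgb7 by 100906_at and -0.37 for Itga4, and each of these calls was lost within cluster 1.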

How the results depend on the processing

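Counts below are of the 11 tested integrin probe sets called by limma, or of 7 with the filter at the 50th percentile, which leaves Itgae, Itga4, Itga6 and the dimmer Itgb7 set untested. At day 5 against unirradiated hosts, 2 were called. That count was 1 with the filter at the 50th percentile, 0 with the 2 groups fitted alone, 1 within array cluster 2, 1 without day-5 arrays 1 and 2, and 0 to 3 with 1 array left out. At day 40 against unirradiated hosts, 4 became 2 with the filter at the 50th percentile. The called sets missing under that filter, Itgae at day 5 and Itgae and Itga4 at day 40, were no longer tested. At day 115 against unirradiated hosts, 9 became 5 with the cluster term, where the count over all probe sets was 384 in place of 2424. For day 40 against day 5, 3 became 0 within cluster 1, where 3 had an unadjusted p under 0.05, and 1 to 3 with 1 array left out. For day 115 against day 5, 6 became 3 with the 2 groups fitted alone, 3 within cluster 1, and 3 to 6 with 1 array left out. Without day-5 arrays 1 and 2 together, Itgal was also called there. Among the partner chains 0 became 2 with a pseudocount of 1, the exact permutation tests of Itga4 and Itgae against Itgb7 at day 5 (adjusted p = 0.0364 each). No called difference turned its sign under an alternative.

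Groups share replicate numbers, and with a replicate block the count was 6 at day 5 against unirradiated hosts and 3 for day 115 against day 5. The day-115 differences from day 5 of Itgb2 (0.50, adjusted p = 0.126), Itgb7 by 100906_at (0.74, adjusted p = 0.173) and Itga4 (-0.17, adjusted p = 0.398) were not called with that block. Deviations of the 21 same-numbered pairs of arrays correlated from -0.667 to 0.764 (median 0.068), with 8 over 0.1. The array clusters cut across these numbers, so these correlations cannot settle whether same-numbered arrays belong together. Quantile normalisation, the replicate block and the 2 groups fitted alone each called Itgb1 by 100123_f_at at day 40 (adjusted p = 0.0256, 0.0181 and 0.0302) and at day 115 (0.0299, 0.0248 and 0.0296). Dim sets, Itga4, Itga6 and Itgae among them, lie close to the lowest signals of the table, which limits the size of their changes. Arrays were not left out in turn for genes other than the integrin members.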
